A study of Homo sapiens with 9 samples.

Results

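Chemokine ligands are small secreted or membrane-tethered proteins that guide migrating cells. The 10 ligand genes described here are CXCL1, CXCL2, CXCL3, CXCL5, CXCL6, CXCL8, CXCL16, CX3CL1, CCL2 and CCL20, chosen by gene name from the 58676 genes of the count table. All 10 were listed there. RNA was sequenced from OVCA433, an established cell line of ovarian serous adenocarcinoma, with 9 libraries in 3 groups of 3. The control group carried the shRNA control vector, and the other groups carried shRNA hairpin #1 or hairpin #3 against MPZL3, which encodes a membrane protein with an immunoglobulin domain. All 3 groups had been transduced with lentivirus, the cells were otherwise labelled wild type, and each group held replicates A, B and C. The study states 3 biological replicates per condition and calls the control of this line an empty vector in 1 place and a scrambled hairpin in another, so whether control cells expressed a hairpin is uncertain. The replicate letters are not described, so the libraries compared here may share a batch by letter, and p-values measure the spread between these libraries.

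CXCL1, CXCL2, CXCL3, CXCL5, CXCL6 and CXCL8 belong to the CXC chemokines that carry a glutamate-leucine-arginine motif and attract neutrophils through the receptors CXCR1 and CXCR2. Their genes lie together on chromosome 4 and are induced by interleukin-1 and tumor necrosis factor through NF-kB, while their messenger RNAs carry AU-rich elements bound by decay factors such as ZFP36. CXCL16 and CX3CL1 are made as membrane-anchored proteins that can be shed by ADAM10 and bind CXCR6 and CX3CR1. CCL2 attracts monocytes through CCR2, and CCL20 attracts lymphocytes and dendritic cells through CCR6.

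Of the 10 genes, 5 had enough reads to be tested. CXCL1, CXCL2, CXCL3 and CXCL8 were higher in MPZL3-knockdown libraries than in control libraries, by 12.2-fold, 9.72-fold, 12.9-fold and 7.53-fold in the fit that pooled both hairpins. CXCL16 moved the other way and was 31.0-fold lower. All 6 knockdown libraries lay above all 3 control libraries for each of the 4 ligands that rose, and all 6 lay below for CXCL16. The share of all tested genes that separated in this way was not computed, here or for the separations given below. The other 5 genes were at or near 0 counts in every library.

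Library totals ranged from 16850854 to 23890191 counts, and 15975 genes passed the filter on low counts. Levels are given as CPM, the usual depth-scaled count per gene, computed with TMM normalization factors. A group with 3 counts or fewer in each of its libraries is called at the floor, and 3 counts corresponded to 0.129 to 0.177 CPM across the libraries. The floors allow for counting error alone, because PCR copies were not told apart by molecular identifiers. The median log2 fold change over all tested genes stayed within 0.016 of 0 in every comparison, the farthest being -0.0156 for replicate A against replicates B and C.

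MPZL3, the targeted gene, was measured at 15.6, 21.9 and 21.0 CPM in control replicates A, B and C. It was at 1.87, 1.98 and 1.80 CPM with hairpin #1 and at 1.94, 0.988 and 1.80 CPM with hairpin #3. The knockdown and control libraries did not overlap, and the pooled log2 difference was -3.49 (SE 0.191, edgeR adjusted p = 6.87e-08).

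The epithelial identity of the cells was checked against 9 markers, of which 8 were tested and WT1 had no count. Summed over the list, these markers reached 11180 to 14049 CPM in control libraries, 5398 to 6909 CPM with hairpin #1 and 5368 to 6051 CPM with hairpin #3. In the pooled comparison 5 of the 8 fell and PAX8 rose, against 7.40% of all tested genes called lower and 7.26% called higher. MUC16 was at the floor in both knockdown groups and at least 21.2-fold lower. It passed the filter on low counts only through control libraries, so the filter favoured a fall. EPCAM had a log2 fold change of -5.81 and KRT19 had -3.82. Of 8 leukocyte markers, LYZ and FCGR3B were among those with no count and PTPRC alone was tested (log2 fold change -0.18, edgeR adjusted p = 0.875). The leukocyte markers summed to 1.29 to 2.37 CPM in control libraries, 0.729 to 1.59 CPM with hairpin #1 and 0.368 to 1.41 CPM with hairpin #3. Of 4 endothelial markers, CDH5, at the floor in control libraries and at least 20.5-fold higher with knockdown, and KDR (log2 fold change 2.84) rose. CDH5 passed the filter on low counts only through knockdown libraries, so the filter favoured a rise. PECAM1 had at most 4 counts in any library and VWF was not called. The sum of the 4 endothelial markers was 0.547 to 1.02 CPM in control libraries, 4.16 to 6.65 CPM with hairpin #1 and 5.12 to 7.50 CPM with hairpin #3. These summed levels did not overlap between control and knockdown, nor did those of the epithelial markers. The part of either list in the ligand results was not tested. Within a library of pooled cells, fewer cells expressing a gene and less RNA per cell cannot be told apart.

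The stretch upstream of each gene was read from RefSeq promoters on GRCh38.p14, which held 7 of the 10 members, and CXCL16, CX3CL1 and CCL2 were among those with no entry. The letters GGAATTTCC, a form of the kB element bound by NF-kB, occurred once in each of the 6 promoters of the CXC ligands with the glutamate-leucine-arginine motif and in none for CCL20. Only these exact letters were searched, so whether CCL20 carries another form of the kB element was not examined. These promoters are shown because the element sat at nearly the same place in the genes that rose and in CXCL5 and CXCL6, which had almost no reads. Each line gives 110 bases before to 10 bases after the RefSeq start, 5′ to 3′ on the strand of the gene, with the matched letters in capitals.
CXCL1, chr4:73869283-73869402, plus strand: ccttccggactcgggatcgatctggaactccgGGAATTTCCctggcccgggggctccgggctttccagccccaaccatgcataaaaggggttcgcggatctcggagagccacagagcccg
CXCL2, chr4:74099186-74099305, minus strand: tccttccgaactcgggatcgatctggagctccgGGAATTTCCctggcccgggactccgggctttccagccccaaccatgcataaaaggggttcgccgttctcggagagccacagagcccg
CXCL3, chr4:74038680-74038799, minus strand: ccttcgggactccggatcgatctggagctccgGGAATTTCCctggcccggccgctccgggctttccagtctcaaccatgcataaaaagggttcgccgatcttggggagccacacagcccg
CXCL8, chr4:73740459-73740578, plus strand: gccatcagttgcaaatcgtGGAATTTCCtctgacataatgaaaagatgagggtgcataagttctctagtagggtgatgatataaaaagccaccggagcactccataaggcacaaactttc
CXCL5, chr4:73998668-73998787, minus strand: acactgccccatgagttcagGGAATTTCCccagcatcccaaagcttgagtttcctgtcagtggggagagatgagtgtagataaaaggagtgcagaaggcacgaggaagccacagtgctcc
CXCL6, chr4:73836568-73836687, plus strand: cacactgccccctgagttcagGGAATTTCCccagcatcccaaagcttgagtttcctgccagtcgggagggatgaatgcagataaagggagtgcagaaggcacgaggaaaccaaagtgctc

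The match began 78, 77 and 78 bases before the start in CXCL1, CXCL2 and CXCL3, 91 bases before it in CXCL8, and 90 and 89 bases before it in CXCL5 and CXCL6. Searched on both strands over the full 300 bases, the same letters were in 162 of 35116 promoters, which is 0.461%. CXCL5 and CXCL6 thus carried the same letters as CXCL8 while having 2 and 3 counts in all libraries together. The AP-1 element TGANTCA was found 137 bases before the start of CXCL8 and in no other member, against 7.71% of all promoters. The TATA letters TATAAA were found in CXCL8 and CCL20, against 11.5% of all promoters. None of the 3 motifs overlapped another within CXCL8. Over the 300 bases the promoters of CXCL1 and CXCL3 were identical at 82.5% of aligned columns, CXCL2 and CXCL3 at 73.8%, and CXCL5 and CXCL6 at 83.1%, whereas CXCL1 and CXCL8 reached 45.2%. A match of letters is a description of the sequence and not a measured binding site.

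Among the neutrophil-attracting ligands, CXCL1 had the most counts. It lies at chr4:73869393-73871242 on the plus strand of GRCh38. Its levels were 12.6, 62.1 and 66.9 CPM in control replicates A, B and C. With hairpin #1 they were 196.5, 718.6 and 600.1 CPM, and with hairpin #3 they were 131.7, 933.2 and 883.2 CPM. Even the lowest knockdown library was above the highest control library, and replicate A was the lowest library of each group. The group means were 47.2 ± 30.0 CPM in control, 505.1 ± 274 CPM with hairpin #1 and 649.4 ± 449 CPM with hairpin #3 (SD, n = 3 each). The edgeR log2 fold change over control was 3.42 (SE 0.726, adjusted p = 0.00215) for hairpin #1 and 3.78 (SE 0.737, adjusted p = 0.00125) for hairpin #3.

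CXCL8, also known as interleukin-8, lies at chr4:73740506-73743716 on the plus strand. Control replicates A, B and C were at 5.42, 15.4 and 14.3 CPM. Hairpin #1 libraries were at 28.6, 129.5 and 93.4 CPM, and hairpin #3 libraries at 17.6, 112.6 and 146.4 CPM. The lowest knockdown library, replicate A of hairpin #3, was only slightly above the highest control library, replicate B. Group means were 11.7 ± 5.46, 83.8 ± 51.2 and 92.2 ± 66.8 CPM (SD, n = 3 each). The log2 fold changes over control were 2.84 (SE 0.676, edgeR adjusted p = 0.00467) for hairpin #1 and 2.98 (SE 0.679, edgeR adjusted p = 0.00377) for hairpin #3, the smallest of the 4 ligands that rose.

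CXCL2 (chr4:74097035-74099293, minus strand) and CXCL3 (chr4:74036589-74038807, minus strand) are close paralogs of CXCL1 that were present at much lower levels. CXCL2 was at 1.07, 2.14 and 2.68 CPM in control replicates A, B and C, at 10.3, 21.5 and 16.8 CPM with hairpin #1 and at 6.36, 31.6 and 28.1 CPM with hairpin #3. CXCL3 was at 0.678, 0.846 and 1.05 CPM in control, at 4.81, 12.2 and 9.43 CPM with hairpin #1 and at 3.88, 20.2 and 16.5 CPM with hairpin #3. For both genes the knockdown and control libraries were separate, and replicate A was again lowest in each group. The control values of CXCL3 rest on 14, 17 and 22 counts. With hairpin #1 the log2 fold changes were 3.04 (SE 0.529, edgeR adjusted p = 0.000480) for CXCL2 and 3.35 (SE 0.574, edgeR adjusted p = 0.000435) for CXCL3. With hairpin #3 they were 3.49 (SE 0.529, edgeR adjusted p = 0.000170) and 3.97 (SE 0.569, edgeR adjusted p = 0.000106). Among 50-base stretches of the transcripts, 4.81% of those of CXCL1, 12.5% of those of CXCL2 and 6.01% of those of CXCL3 also occurred in another of these genes, so a small part of the reads could be split between them. At 100 bases the shares were 0%, 5.0% and 3.27%.

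CXCL16, the membrane-anchored ligand, lies at chr17:4733526-4739922 on the minus strand. Control replicates A, B and C were at 68.7, 104.1 and 104.9 CPM. Hairpin #1 libraries were at 2.06, 2.60 and 1.89 CPM, and hairpin #3 libraries at 3.24, 3.51 and 4.65 CPM. Knockdown thus left 2.35% of the control mean with hairpin #1 and 4.10% with hairpin #3, from means of 92.6 ± 20.7, 2.18 ± 0.370 and 3.80 ± 0.749 CPM (SD, n = 3 each). The log2 fold changes were -5.41 (SE 0.213, edgeR adjusted p = 5.64e-10) and -4.59 (SE 0.201, edgeR adjusted p = 1.60e-09). Each knockdown library held 44 to 101 counts of this gene, so the remaining level was above the floor. The gene overlaps MED11 on the opposite strand over 85 bases, and the libraries did not keep strand.

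**Figure D1:**
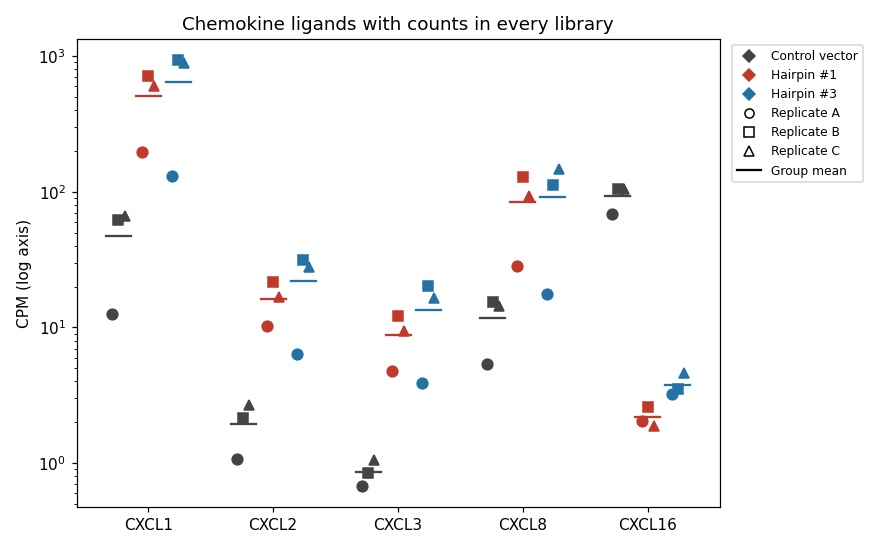
CPM of the 5 ligands with counts in every library, on a log axis, in control (grey), hairpin #1 (red) and hairpin #3 (blue) libraries. Symbols stand for replicates A, B and C and bars for group means of 3 libraries. CXCL1, CXCL2, CXCL3 and CXCL8 were higher in all 6 knockdown libraries than in any control library, and CXCL16 was lower. How many of all tested genes separated in this way was not computed. Replicate A was lowest in each group for the 4 that rose.

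In the comparison of all knockdown libraries with control, the log2 fold changes were 3.61 (SE 0.742, edgeR adjusted p = 0.00270) for CXCL1, 3.28 (SE 0.533, edgeR adjusted p = 0.000516) for CXCL2 and 3.69 (SE 0.579, edgeR adjusted p = 0.000396) for CXCL3. CXCL8 had 2.91 (SE 0.670, edgeR adjusted p = 0.00552) and CXCL16 -4.96 (SE 0.236, edgeR adjusted p = 1.86e-08). A gene was called at an adjusted p under 0.05 and a log2 fold change of at least 1 in either direction, and by this rule 4 tested members were higher and 1 was lower. Among all 15975 tested genes, 7.26% were called higher and 7.40% lower. With hairpin #1 alone the members again counted 4 higher and 1 lower, against 7.76% and 8.55% of all tested genes. With hairpin #3 alone the counts were the same, against 7.46% and 7.83%. The median log2 fold change of the 5 tested members was 3.28 in the pooled comparison, against 0.00454 over all tested genes. These comparisons share the control libraries and are therefore not independent of each other. Leaving out any library, and fitting replicates B and C alone, an alternative chosen after seeing the data, kept all 5 calls in all 3 comparisons.

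The members without enough reads were CXCL5, CXCL6, CX3CL1, CCL2 and CCL20. CX3CL1 (chr16:57372458-57385048) had 0 counts in all 9 libraries, which allows up to 0.129 to 0.177 CPM per library. CXCL5 (chr4:73995642-73998779) had 1 count in control replicate B and 1 in hairpin #3 replicate C. CXCL6 (chr4:73836497-73849064) had 1 and 2 counts in hairpin #3 replicates B and C and none elsewhere. CCL2 (chr17:34255218-34257203) had 1 and 4 counts in the same libraries and none elsewhere. CCL20 (chr2:227813842-227817564) had 1, 3 and 0 counts in control, 2, 2 and 5 with hairpin #1 and 0 in each library of hairpin #3. Differences for these genes were not detectable at this depth.

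Set on a common scale by dividing CPM by gene length in kb, the order of the ligands was the same among the 4 that rose in every library, with CXCL1 highest, then CXCL8, CXCL2 and CXCL3. In control cells CXCL1 at 36.4 ± 23.2 and CXCL16 at 33.1 ± 7.41 CPM per kb (SD, n = 3) were not separated beyond their spread. CXCL8 followed at 5.14 ± 2.40, CXCL2 at 1.31 ± 0.547 and CXCL3 at 0.387 ± 0.0843 CPM per kb, with no overlap between neighbours. With hairpin #1 the means were 389.7 ± 211 for CXCL1, 36.9 ± 22.5 for CXCL8, 10.8 ± 3.76 for CXCL2, 3.97 ± 1.67 for CXCL3 and 0.780 ± 0.132 CPM per kb for CXCL16, and only CXCL8 and CXCL2 overlapped. With hairpin #3 they were 501.1 ± 346, 40.6 ± 29.4, 14.7 ± 9.12, 6.10 ± 3.86 and 1.36 ± 0.268 CPM per kb in the same order, and CXCL8 overlapped CXCL2, which overlapped CXCL3. CXCL16 was thus next to CXCL1 at the top of the order in control cells and below CXCL3 in both knockdown groups.

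The make-up of the ligand reads shifted accordingly. CXCL16 supplied 55.3% to 77.6% of the counts of the 10 genes in control libraries and 0.261% to 1.99% in knockdown libraries. CXCL1 supplied 14.3% to 35.2% in control and 80.9% to 84.7% with knockdown. All 10 genes together took 0.00900% to 0.0186% of a control library and 0.0164% to 0.111% of a knockdown library. The ratio of CXCL1 to CXCL8, per kb, was 4.09 to 8.21 in control libraries, 9.74 to 12.1 with hairpin #1 and 10.6 to 14.5 with hairpin #3, so these ranges did not overlap between control and knockdown. The ratio of CXCL2 to CXCL3, per kb, was 2.32 to 3.77 in control, 2.62 to 3.16 with hairpin #1 and 2.32 to 2.52 with hairpin #3, with overlap. Neither ratio was tested.

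The hairpins were compared directly in the 3-group model of all 9 libraries, so the control libraries entered the estimate of spread. Hairpin #3 minus hairpin #1 gave log2 differences of 0.36 (95% interval -0.922 to 1.65, edgeR adjusted p = 0.799) for CXCL1 and 0.45 (-0.403 to 1.30, edgeR adjusted p = 0.589) for CXCL2. It gave 0.63 (-0.234 to 1.49, edgeR adjusted p = 0.428) for CXCL3 and 0.14 (-1.05 to 1.34, edgeR adjusted p = 0.927) for CXCL8. The intervals include 0 and also differences of over 2-fold, and this fit left the letter difference in their spread. CXCL16 was 1.77-fold higher with hairpin #3 (log2 difference 0.82, SE 0.235, edgeR adjusted p = 0.0386), which passed the p threshold but not the fold threshold. It was higher with hairpin #3 in 3 of 3 letters, by 1.57, 1.35 and 2.47 times in A, B and C. Leaving out hairpin #1 replicate A or C, or hairpin #3 replicate B or C, raised its adjusted p above 0.05, to at most 0.156. None of the 5 members was called in this comparison, in which 2.22% of tested genes were called higher and 1.72% lower with hairpin #3.

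The order of the hairpins depended on the replicate letter for the ligands that rose. In replicate A the level with hairpin #3 was 0.670 times that with hairpin #1 for CXCL1, 0.618 times for CXCL2, 0.807 times for CXCL3 and 0.616 times for CXCL8. In replicate C it was 1.47, 1.67, 1.75 and 1.57 times. In replicate B, CXCL1, CXCL2 and CXCL3 were at 1.30, 1.47 and 1.66 times, and CXCL8 was at 0.869 times. Hairpin #3 was therefore lower in A and higher in C for all 4 ligands. Without hairpin #3 replicate A the CXCL3 difference was 1.06 (edgeR adjusted p = 0.0274) and was called. With replicates B and C alone, an alternative chosen after seeing the data, the log2 differences were 0.46 for CXCL1, 0.64 for CXCL2 and 0.77 for CXCL3, with edgeR adjusted p of 0.00647, 0.00434 and 0.00380 and none past the fold threshold. CXCL8 was at 0.22 in that fit (edgeR adjusted p = 0.327).

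These hairpin differences were read against the surrounding chromosome, because genes of chromosome 4 were lower as a whole with hairpin #1. Over the 50 nearest tested genes with at least 10 CPM, which lie between 55395957 and 82798857 on chromosome 4 and include no chemokine ligand, the median log2 fold change over control was -0.348 with hairpin #1 and 0.0266 with hairpin #3. Over the 365 such genes of all chromosome 4, the medians were -0.406 and 0.0226. For hairpin #3 against hairpin #1, the median of the 50 neighbours was 0.403 and 96% of them were higher with hairpin #3. The differences of CXCL1, CXCL2, CXCL3 and CXCL8 minus this median were -0.04, 0.05, 0.23 and -0.26. Minus the neighbours' median, the log2 fold changes over control were 3.77, 3.39, 3.69 and 3.19 with hairpin #1, in the order CXCL1, CXCL2, CXCL3 and CXCL8. They were 3.76, 3.46, 3.95 and 2.96 with hairpin #3. For CXCL16 on chromosome 17, the 50 neighbours had a median of -0.0487 with hairpin #1 and 0.0369 with hairpin #3, and its hairpin difference minus theirs was 0.87. No test was run on the values after subtraction.

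**Figure D2:**
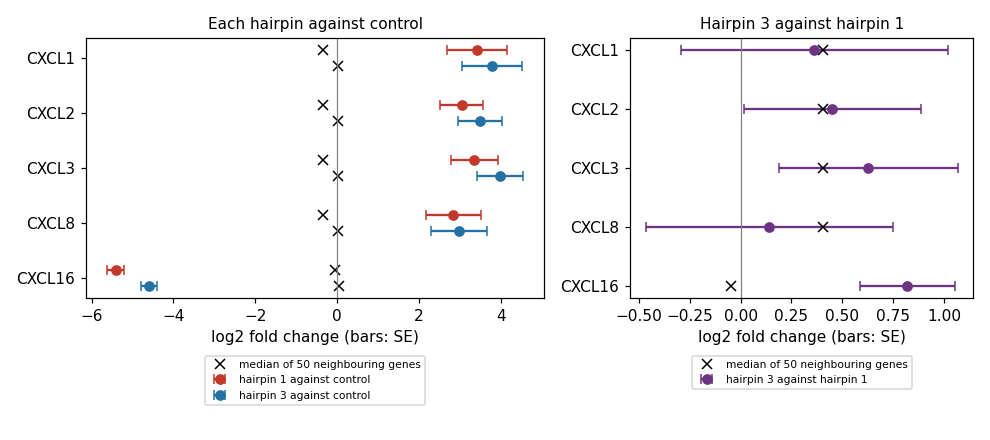
Log2 fold change with its SE for the 5 tested ligands, with each hairpin against control on the left and hairpin #3 against hairpin #1 on the right, on an expanded scale. Crosses mark the median of the 50 neighbouring genes; the 4 chromosome 4 ligands lie far above it on the left, and on the right their SE bars include its value of 0.403.

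Within the cluster the rise was not shared by every gene. From the first base of CXCL8 to the last base of CXCL2 the cluster covers 358.8 kb and holds 6 of the 10 members. CXCL6, PF4V1, PF4, PPBP and CXCL5 lie between genes that rose and had 0 to 3 counts each over all libraries. MTHFD2L, the next protein-coding gene beyond CXCL2, had a pooled log2 fold change of 0.26 (edgeR adjusted p = 0.253) and was not called. Farther out, the growth factor genes EPGN (-1.97) and AREG (-2.13) and the gene RASSF6 (-1.99) on the other side were called lower, and AFP (1.63) was called higher. BTC (-0.92), ANKRD17 (0.02), COX18 (-0.22) and the antisense gene RP11-692D12.1 (0.21) were tested and not called. These neighbours are named after their values were seen.

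**Figure D3:**
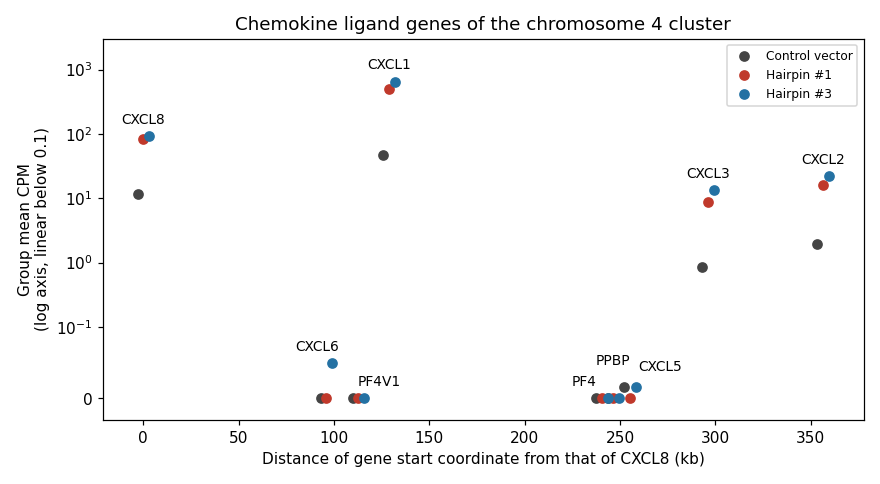
Group mean CPM of the chemokine ligand genes of chromosome 4 against the distance of each gene from CXCL8 in kb, on a log axis that is linear below 0.1. Points are means of 3 libraries, drawn side by side for control, hairpin #1 and hairpin #3; CXCL8, CXCL1, CXCL3 and CXCL2 were higher with both hairpins while the 5 ligand genes between them stayed at 0 to 0.049 CPM.

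Replicate A differed from replicates B and C for the ligands of chromosome 4. In a fit with group and letter together, CXCL1 was 4.80-fold lower in A (log2 -2.26, SE 0.150, edgeR adjusted p = 5.00e-06) and CXCL8 4.52-fold lower (log2 -2.18, SE 0.199, edgeR adjusted p = 2.83e-05). CXCL2 was 2.73-fold lower (log2 -1.45, SE 0.208, edgeR adjusted p = 0.000480) and CXCL3 2.89-fold lower (log2 -1.53, SE 0.225, edgeR adjusted p = 0.000536). Without hairpin #3 replicate A, the CXCL2 value was -0.96 and no longer passed the fold threshold. CXCL16 differed by -0.48 (edgeR adjusted p = 0.0126) and was not called. Among the tested members 4 were called lower in A and none higher, against 0.858% and 0.182% of all tested genes. The letter difference was also present in control cells, where CXCL1 in B and C was 4.91 and 5.29 times its level in A, and CXCL8 was 2.84 and 2.63 times. CXCL3 in control was only 1.25 and 1.55 times its level in A. With hairpin #1 the ratios were 3.66 and 3.05 for CXCL1 and 4.54 and 3.27 for CXCL8, and with hairpin #3 they were 7.09 and 6.71 for CXCL1 and 6.40 and 8.32 for CXCL8. Whether the letter difference varied with the group was not tested. MPZL3 was not called between the letters (log2 -0.18). What distinguished replicate A was not given in the sources used here, and its part in these differences was not tested.

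Because the letters differ, the ratio to control was also taken within each letter. For CXCL1 the ratio with hairpin #1 was 15.5, 11.6 and 8.98 in A, B and C, and with hairpin #3 it was 10.4, 15.0 and 13.2. For CXCL8 it was 5.26, 8.42 and 6.54 with hairpin #1 and 3.24, 7.32 and 10.2 with hairpin #3. The rise was thus present in 3 of 3 letters with each hairpin, and for these genes the ratios spread less than the levels. CXCL2 ranged from 5.97 to 14.8 and CXCL3 from 5.73 to 23.9 over the 6 ratios. CXCL16 was 33.4, 40.1 and 55.6 times below control with hairpin #1 and 21.2, 29.7 and 22.6 times below with hairpin #3.

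**Figure D4:**
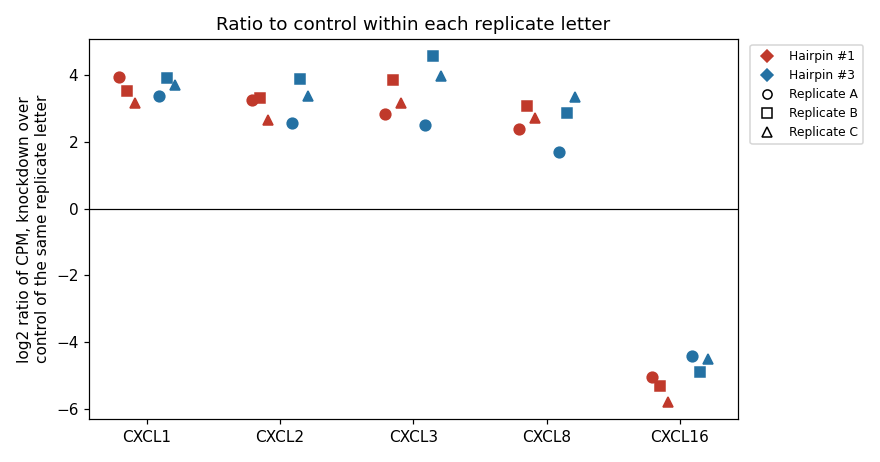
Log2 ratio of CPM in each knockdown library to the control library of the same replicate letter, for hairpin #1 (red) and hairpin #3 (blue). Each symbol is 1 library; the 24 ratios of CXCL1, CXCL2, CXCL3 and CXCL8 lie between 1.70 and 4.58, and the 6 of CXCL16 between -5.80 and -4.41.

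The 4 ligands that rose also varied together. Over the 9 libraries Pearson's r of log2 CPM was 0.981 between CXCL1 and CXCL8, 0.982 between CXCL1 and CXCL2 and 0.992 between CXCL2 and CXCL3. After subtracting group means, r was 0.965, 0.953 and 0.966, so the libraries of a group moved together as well, which includes the letter difference. CXCL16 was opposite to CXCL1 over all libraries (r = -0.788) and moved with it after group means were subtracted (r = 0.733). The genes outside the list whose log2 CPM was most like CXCL8 over the 9 libraries, among 9689 genes with at least 10 CPM, were CEBPB (r = 0.989), SOCS3 (0.988), ZNF319 (0.980), NFKBIZ (0.976) and PPOX (0.973). After subtracting group means they were TMEM132A (0.995), RNF44 (0.992), MANBA (0.992), IER3 (0.988) and GGA1 (0.987). The points share groups and letters, and the values are a description only. CX3CL1 had no counts and allowed no such ranking.

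Signals and factors that induce these ligands were taken from a list of 14 genes, of which 13 were tested. In the pooled comparison 4 were called higher and none lower, against 7.26% and 7.40% of all tested genes. The median log2 fold change of the list was 0.476. The other 9 tested genes, named after their values were seen, were not called and lay on both sides of 0. CEBPB (0.78), CEBPD (0.72), NFKB1 (0.48) and NFKBIA (0.21) were above 0. TNFAIP3 (-0.63), RELB (-0.52), NFKB2 (-0.47), RELA (-0.13) and REL (-0.02) were below 0. IL1B, which encodes interleukin-1 beta, was at 5.38, 7.96 and 16.3 CPM in control replicates A, B and C, at 69.0, 112.9 and 207.4 CPM with hairpin #1 and at 44.8, 148.1 and 295.2 CPM with hairpin #3. IL1A, which encodes interleukin-1 alpha, was at 5.57, 7.27 and 9.89 CPM in control, at 40.0, 71.0 and 86.8 CPM with hairpin #1 and at 37.4, 72.5 and 106.5 CPM with hairpin #3. Neither overlapped between control and knockdown, and both were lowest in replicate A of each group, as the 4 ligands that rose were. Both were highest in replicate C of each group, whereas with hairpin #1 the 4 ligands were highest in replicate B. Without hairpin #3 replicate C, the hairpin #3 value of IL1B was 3.29 instead of 4.04. The pooled log2 fold changes were 3.89 (SE 0.634, edgeR adjusted p = 0.000531) for IL1B and 3.19 (SE 0.369, edgeR adjusted p = 3.76e-05) for IL1A. NFKBIZ, which encodes a nuclear cofactor of NF-kB, rose by 1.65 on the log2 scale (SE 0.304, edgeR adjusted p = 0.00131). The fourth was BCL3, named after its value was seen, with 1.04 (SE 0.251, edgeR adjusted p = 0.00750). BCL3 was called with hairpin #1 (1.39) and not with hairpin #3 (0.56). With hairpin #3, 3 genes of the list were higher, against 7.46% of all tested genes. TNF had at most 4 counts in any library and was not tested. IL1A and IL1B were the 2 genes of the list called lower in replicate A, against 0.858% of all tested genes. Their log2 differences in replicate A were -1.0 and -1.54. The call of IL1A there was lost in 5 of 13 alternatives.

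Of 10 regulators of mRNA decay, all tested, only ZFP36 was called in the pooled comparison. It was lower, as were 7.40% of all tested genes, and the list had a median log2 fold change of 0.146. ZFP36, which encodes a protein that binds AU-rich elements and speeds decay, was at 21.7, 23.8 and 27.7 CPM in control. It was at 6.22, 6.0 and 7.03 CPM with hairpin #1 and at 4.88, 5.54 and 5.75 CPM with hairpin #3, a log2 difference of -2.04 (SE 0.129, edgeR adjusted p = 2.35e-07). It was not called between the letters (log2 -0.18). With hairpin #1 alone the ribonuclease gene ZC3H12A was also called, at 1.29 (SE 0.459, edgeR adjusted p = 0.0412). The other 9 genes ranged in the pooled comparison from -0.05 for ZFP36L2 to 1.10 for ZC3H12A (edgeR adjusted p = 0.0825). ZFP36L1 was at a mean of 181.9 CPM in control and 273.1 CPM with knockdown. Its value was 0.59 (edgeR adjusted p = 0.00878), and that of TIA1 was 0.34 (edgeR adjusted p = 0.0323). Both passed the p threshold but not the fold threshold. These genes are named after their values were seen.

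Of 11 genes that process or bind chemokines, all tested, 4 rose and none fell in the pooled comparison, with a median log2 fold change of 0.358. Among all tested genes 7.26% were called higher and 7.40% lower. TNFAIP6, which encodes a secreted protein that binds CXCL8, had no count in control cells and 11 to 74 counts in knockdown libraries, at least 12.0-fold higher against 3 counts in each control library. It is 1 of the 4 counted as higher, but it passed the filter on low counts only through knockdown libraries, so the filter favoured a rise. The metalloproteinases MMP2 (log2 fold change 2.35, edgeR adjusted p = 7.55e-05) and MMP14 (2.39, edgeR adjusted p = 1.04e-06) rose, as did MMP9 (1.08), named after its value was seen, which was called with hairpin #3 (1.39) and not with hairpin #1 (0.70). ADAM10, the sheddase of CXCL16, had a log2 fold change of -0.38 (edgeR adjusted p = 0.0213). It passed the p threshold but not the fold threshold and was not called.

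The other 37 chemokine ligands gave little signal. The table held 36 of them, 22 had no count in any library, and 2 were tested. CCL28, a mucosal ligand made by epithelia, was at 1.94, 3.78 and 2.58 CPM in control cells and had 1 count in all 6 knockdown libraries together. It was at least 18.4-fold lower against 3 counts in each knockdown library. CCL5 had 1, 1 and 3 counts in control, 13, 14 and 47 counts with hairpin #1 and 7, 12 and 5 counts with hairpin #3. CCL28 passed the filter on low counts only through control libraries and CCL5 only through knockdown libraries, so the filter favoured a difference in both. CCL5 was at least 5.29-fold higher with knockdown (edgeR adjusted p = 0.0107). Its call was lost without control replicate B (edgeR adjusted p = 0.0522) and with replicates B and C alone (0.0535). Without control replicate C its pooled log2 fold change was 3.83, against 3.18 with all libraries. CCL5 lies inside an antisense gene, and without strand their reads cannot be told apart. The median log2 fold change of CCL28 and CCL5, 1 lower and 1 higher, was -2.20.

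Of 23 chemokine receptors, 7 had no count and 2 were tested. CXCR1 had no count and CXCR2 4 counts over all libraries, so the receptors of the ligands that rose were not detectable at this depth. CXCR6, the receptor of CXCL16, was at 0.357 CPM in control, 0.530 CPM with hairpin #1 and 0.171 CPM with hairpin #3 and was not tested. ACKR2, a scavenging receptor of CC chemokines, was at 28.6, 35.2 and 37.8 CPM in control replicates A, B and C and had at most 5 counts in any knockdown library. Its pooled log2 fold change was -8.33 (SE 0.306, edgeR adjusted p = 2.72e-09), and against 3 counts in each hairpin #3 library it was at least 212-fold lower. ACKR3, an atypical receptor of CXCL12, had 1, 1 and 7 counts in control, 20, 59 and 69 counts with hairpin #1 and 11 in each library of hairpin #3. Its pooled log2 fold change was 3.27 (SE 0.888, edgeR adjusted p = 0.0142), and it was 4.72 without control replicate C, which held 7 of the 9 control counts. It was called with hairpin #1 (3.92, edgeR adjusted p = 0.000244) and not with hairpin #3 (1.95), where 6 of 16 alternatives called it, including 3.41 without control replicate C, and hairpin #3 minus hairpin #1 was -1.97 (SE 0.512, edgeR adjusted p = 0.0239). The pooled call was lost without control replicate A (edgeR adjusted p = 0.0604) or B (0.0682) and with replicates B and C alone (0.0557). ACKR2 passed the filter on low counts only through control libraries and ACKR3 only through knockdown libraries, so the filter favoured a difference in both. The median log2 fold change of the 2 receptors, 1 lower and 1 higher, was -2.53.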

How the data were processed

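Poly(A)-selected RNA of 9 OVCA433 libraries was sequenced without strand. Per the labels, reads were aligned to hg38 with HISAT2 2.0.5 and counted with featureCounts 1.5.0-p3, and the authors deposited raw counts per gene. The annotation release and counting options are not given in the sources used here.

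Genes were filtered with filterByExpr (minimum count 10, minimum total 15), which left 15975 genes with 99.889% of the counts, and tested with glmQLFit and glmQLFTest of edgeR 4.0.16 in R 4.3.3 after TMM normalization, with Benjamini-Hochberg adjustment over all of them. Genes at the floor in some groups, among them TNFAIP6, MUC16 and CDH5, passed the filter only through the groups where they were high. Both hairpins formed 1 arm of 6 libraries in the pooled comparison. Comparisons of single hairpins used a 3-group model, and replicate A against B and C used group plus letter. The 3-group model alone was run on simulated counts, with genes changed in hairpin #1 and no letter difference. That run did not cover the letter difference of these libraries, nor the pooled and letter fits.

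The members and gene lists were chosen with earlier results of these data known. All members, MPZL3, IL1A, IL1B and TNF were named whatever their values, with at most 3 called genes per other list by absolute pooled fold change and the 5 genes most like CXCL8. The lists were other ligands, receptors, inducers, decay regulators, processing and binding genes, and epithelial, leukocyte and endothelial markers. The result of 1 leukocyte marker gene is not reported here.

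Alternatives were no filter, DESeq2 size factors, library totals, the DESeq2 1.42.0 Wald test, each library left out, the replicate letter as a block, the groups compared alone, a 3-group model for the pooled comparison, the neighbours' median subtracted, and replicates B and C alone. Of the gene identifiers, 95.2% had the same position in GENCODE 29, so positions are on GRCh38, with CCL20 not among them. RefSeq promoters were aligned with Biopython 1.88.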

Additional observations from a re-analysis of the deposited data

Results flagged for a closer look

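In 4 of the named genes the effect against control differed between the hairpins by the direct test of hairpin #3 against hairpin #1. CXCL16 was higher with hairpin #3, with a log2 difference of 0.82 (SE 0.235, edgeR adjusted p = 0.0386). ACKR3 was lower with hairpin #3, at -1.97 (SE 0.512, edgeR adjusted p = 0.0239), and lost the call without hairpin #1 replicate B or C or hairpin #3 replicate B or C, where the adjusted p reached at most 0.0989. The epithelial markers EPCAM and KRT19 differed by 0.70 (SE 0.161, edgeR adjusted p = 0.0128) and -0.60 (SE 0.169, edgeR adjusted p = 0.0344), and over the alternatives their adjusted p reached 0.0617 and 0.159. The adjusted p of CXCL16 reached 0.156. CXCL16, EPCAM and KRT19 stayed below the fold threshold.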

How the results depend on the processing

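All 5 tested members kept their direction in the pooled comparison and with each hairpin against control under every alternative, and their call under every alternative that gave a test, which subtracting the neighbours' median did not. Between hairpins, where none was called, CXCL1 ranged from -0.04 to 0.85 and CXCL8 from -0.36 to 0.63, so their sign depended on the alternative, and CXCL3 was called in 1 alternative. The pooled log2 fold changes ranged over the alternatives from 3.16 to 3.95 for CXCL1, 2.99 to 3.57 for CXCL2, 3.44 to 3.94 for CXCL3, 2.57 to 3.16 for CXCL8 and -5.14 to -4.85 for CXCL16, with edgeR or DESeq2 adjusted p of at most 0.0126, 0.00426, 0.00382, 0.0285 and 3.91e-06. Leaving out each library gave 0 to 1 called members between hairpins, the 1 being CXCL3 without hairpin #3 replicate A. Genes called between replicate A and replicates B and C numbered 166, 84 with the DESeq2 Wald test and 103 to 174 when a library was left out, with the lowest count without hairpin #1 replicate A. The cause was not tested.

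Deviations from group means correlated at 0.0515 to 0.466 between the 9 pairs of libraries with the same letter and at -0.437 to 0.185 between the 18 pairs with different letters. The pairs of replicate A were at 0.401, 0.417 and 0.466. Not every same-letter pair exceeded 0.1, and the main comparisons between groups did not model the letters. Their SEs and intervals therefore include the letter difference. With the letter as a replicate block, 2306 genes were called in the pooled comparison, 2675 with hairpin #1, 2515 with hairpin #3 and 754 between hairpins, against 2342, 2605, 2443 and 628 without it. The block changed no member's call. ACKR3 with hairpin #3 passed with it (2.0, edgeR adjusted p = 0.0230) and under 5 other alternatives. Depth limits the 5 members with few or no counts.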
